A study of Arabidopsis thaliana with 27 samples.

Results

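Transcript levels of 4 WRKY genes, WRKY6 (AT1G62300), WRKY22 (AT4G01250), WRKY29 (AT4G23550) and WRKY53 (AT4G23810), were followed over 27 arrays of Arabidopsis thaliana leaves. They were chosen as the probes that the platform annotation names for these genes, 1 probe per gene, 4 of the array's 576 probes and 4 of the 181 probes with a gene name. The named probes hold 0 others with a WRKY symbol, against 67 WRKY symbols in the reference gene table. The other 395 probes have no single gene name, so whether they hold more of the family is not known here.

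WRKY proteins are plant transcription factors that bind W-box elements in promoters, and many of their genes respond to pathogens. WRKY22 and WRKY29 act downstream of the mitogen-activated protein kinase cascade that bacterial flagellin sets off, an early branch of pattern-triggered immunity. WRKY53 and WRKY6 are known for their roles in leaf senescence, WRKY53 also as a gene that responds to salicylic acid and WRKY6 as a regulator of phosphate transport.

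The study, according to its title, concerns CBP60g and CBP60h in salicylic acid signalling. CBP60g and CBP60h (also called SARD1) are related transcription factors that promote salicylic acid synthesis, and PAD4 is a lipase-like protein of the same defence pathway. All leaves came from 4-week-old plants and were infiltrated with live bacteria at the same nominal density, and the labels used here name no mock-treated or untreated leaves. One strain was hrcC, which is Pseudomonas syringae pv. tomato DC3000 with a mutation in hrcC and no working type III secretion system, and the other was Pseudomonas syringae ES4326 (Psm in the labels), which delivers effectors.

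Wild type (Col-0), the pad4-1 mutant, a double mutant (cbp60g,cbp60h) and a triple mutant (cbp60g,cbp60h,pad4) were read on 3 arrays each 24 h after Psm, from sets 1, 2 and 3. The same 4 genotypes were read on 2 arrays each 9 h after hrcC, from sets 1 and 2, and on 1 array each 24 h after hrcC, from set 3. The cbp60h single mutant has 3 arrays, all 9 h after hrcC. A set is 1 experiment and is called a biological replicate, and every sample is a pool of leaves, 2 per plant, taken from 3 pots. No cbp60g single mutant is in the labels used here, cbp60h has no Psm arrays, and the allele of pad4 in the triple mutant is not given. The labels do not say how many lines carry each mutant.

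Values are log2 brightness as deposited. Neither labels nor files state the logarithm's base; base 2 was inferred from their range, 0.66 to 11.4, and the folds below hold for that base. Levels of different genes come from different probes, so each gene was compared only with itself. Array medians ran from 3.90 (triple mutant, hrcC 9 h, set 1) to 4.53 (double mutant, Psm, set 1), and the 19 pairs of arrays of a group correlated at 0.890 to 0.991 over the named genes. The lowest, 0.890, was between sets 1 and 3 of the double mutant under Psm, and Col-0 at 9 h after hrcC gave 0.906. Within the triple mutant under Psm, the set 2 array correlated at 0.898 and 0.919 with sets 1 and 3, which correlated with each other at 0.957. That array stood apart from its group for WRKY6 and WRKY29. For WRKY22 all arrays of the group were spread, with set 2 highest and set 3 lowest. No named probe belongs to CBP60g, CBP60h or PAD4, and the genotype labels were therefore not checked here. Of 12 listed markers of leaf cell types 0 were among the named probes, so the tissue label was not checked either. In whole leaves, fewer cells of a type and less RNA per cell cannot be told apart.

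WRKY53 was lower in the double mutant and in the triple mutant than in Col-0 at 24 h after Psm, and the fall in the double mutant was the lowest difference of all 181 named genes in that comparison. Under Psm the Col-0 arrays of sets 1, 2 and 3 read 4.76, 4.89 and 4.57. The double mutant read 3.34, 2.98 and 3.07, and the triple mutant 2.64, 3.0 and 2.81. Each Col-0 array was above all 6 arrays of the double and triple mutants, with more than 1 log2 unit between them. Against Col-0 at 4.74 ± 0.16 (SD, n = 3), the double mutant at 3.13 ± 0.19 (SD, n = 3) fell by 1.61 (SE 0.27), or 3.05-fold (limma, adjusted p = 0.000564). The triple mutant at 2.82 ± 0.18 (SD, n = 3) differed from Col-0 by -1.92 (SE 0.27), or 3.79-fold (limma, adjusted p = 1.59e-05). Within the sets, the differences of the double mutant were -1.42, -1.91 and -1.49 and those of the triple mutant -2.12, -1.89 and -1.76. WRKY53 was the 1 WRKY gene of 4 called in the double mutant, where 6.63% of all named genes were called, 2.76% lower.

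In pad4-1 under Psm, WRKY53 read 4.36, 3.24 and 4.22 in sets 1, 2 and 3. All 3 arrays were below the Col-0 arrays, and the set 2 array stood more than 0.9 below the other two. The difference from Col-0 was -0.80 (SE 0.27, 95% interval -1.37 to -0.23) and was not called (limma, adjusted p = 0.12). It was -0.45 without the set 2 array of pad4-1. In this comparison 0 of 4 WRKY genes were called, against 2.76% of the named genes.

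The triple mutant was also lower than pad4-1 in WRKY53, with a difference of -1.12 (SE 0.27), or 2.18-fold (limma, adjusted p = 0.00572). All 3 triple mutant arrays lay below all 3 pad4-1 arrays, and WRKY53 was 1 of 4 WRKY genes called where 21.5% of the named genes were, 15.5% lower. Against the double mutant the triple mutant differed by -0.31 (SE 0.27, 95% interval -0.88 to 0.26), and the arrays overlapped. That difference was not called, and the interval leaves room for a fall of up to 0.88 beyond that of the double mutant. The double mutant and pad4-1 differed by -0.81 (SE 0.27; limma, adjusted p = 0.194), with no WRKY gene of 4 called against 1.1% of named genes. Without the set 2 array of pad4-1 the difference was -1.16 and called (limma, adjusted p = 0.0412). These comparisons share arrays of one genotype or another and are not independent. The departure of WRKY53 from additive effects of the double mutation and of pad4 under Psm was 0.48 (SE 0.38), and 0 of 4 WRKY genes were called for it, against 5.52% of named genes. For WRKY53 it was 0.89 after quantile normalization and 0.80 after re-centring on array medians, and 0.14 without the set 2 array of pad4-1, not called in any of these.

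**Figure D1:**
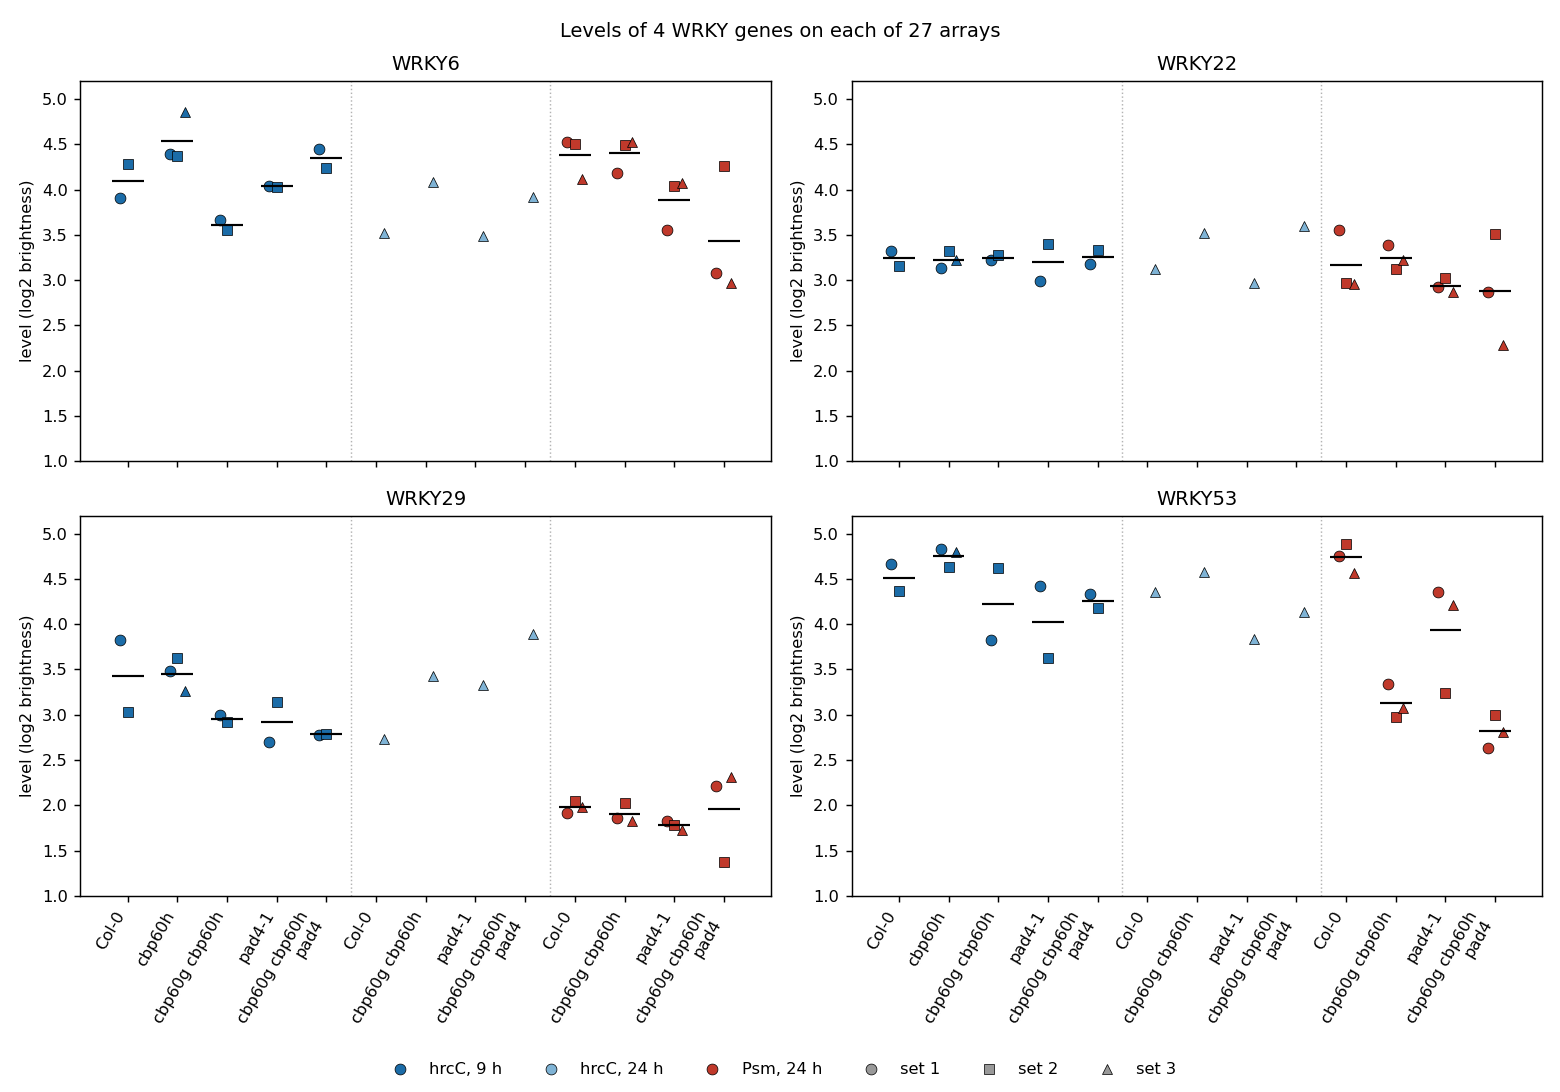
Level (log2 brightness, y axis) of each WRKY gene on each of the 27 arrays, by genotype within treatment (x axis); colours mark the treatment, marker shapes the set, and black bars the mean of groups with 2 or 3 arrays. WRKY53 under Psm is low in both genotypes that lack CBP60g and CBP60h, and WRKY29 is lower on all 12 Psm arrays (1.37 to 2.31) than on all 15 hrcC arrays (2.70 to 3.89).

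After hrcC, WRKY53 did not show a called difference between any pair of genotypes compared. At 9 h the arrays of sets 1 and 2 read 4.66 and 4.37 in Col-0, 4.42 and 3.62 in pad4-1, 3.83 and 4.62 in the double mutant and 4.34 and 4.18 in the triple mutant. The cbp60h single mutant read 4.83, 4.63 and 4.80 in sets 1, 2 and 3. All 3 cbp60h arrays were high and the spread of the double mutant and of pad4-1 was wide, so that only the triple mutant lay wholly below Col-0, by less than 1 SE. The differences from Col-0 were -0.49 (SE 0.33, 95% interval -1.19 to 0.21) in pad4-1 and smaller than 1 SE in the other 3 mutants. The single arrays at 24 h after hrcC read 4.36 in Col-0, 3.84 in pad4-1, 4.58 in the double mutant and 4.14 in the triple mutant, and with 1 array each they allow no test between genotypes.

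The treatments differed in WRKY53 in the double and triple mutants. The levels after Psm at 24 h and hrcC at 9 h differed by -1.09 (SE 0.30) in the double mutant (limma, adjusted p = 0.00685) and by -1.44 (SE 0.30) in the triple mutant (limma, adjusted p = 0.00107), and in both the arrays did not overlap. In Col-0 and pad4-1 the differences were smaller than 1 SE. The call in the double mutant was lost without its set 2 array at 9 h after hrcC, which read 4.62, with a difference of -0.70 (limma, adjusted p = 0.17). The difference between treatments in the mutant's effect, tested as an interaction, was -1.66 (SE 0.43) for the triple mutant (limma, adjusted p = 0.0369) and -1.31 (SE 0.43) for the double mutant (limma, adjusted p = 0.187). WRKY53 was 1 of 4 WRKY genes called in the first, with 3.31% of named genes, 1.1% below 0, and in the second 0% of named genes were called by limma, with 23 of 181, WRKY53 among them, at an unadjusted p under 0.05. With 1 array left out in turn, the interaction of the triple mutant ran from -1.81 to -1.52 and was called in 2 of 10 cases, without Col-0 hrcC set 1 or triple mutant Psm set 2, with adjusted p-values from 0.0305 to 0.175. Strain and time change together between these treatments and cannot be told apart here. At 24 h in set 3, where both strains were read at 1 time, Psm minus hrcC was 0.21 in Col-0, 0.37 in pad4-1, -1.50 in the double mutant and -1.33 in the triple mutant. In sets 1 and 2, from 9 h after hrcC to 24 h after Psm, pad4-1 was also below 0, at -0.06 and -0.38, against -0.49 and -1.64 in the double mutant and -1.70 and -1.18 in the triple mutant. With 1 array of each kind the genotypes were not tested against each other in set 3.

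**Figure D2:**
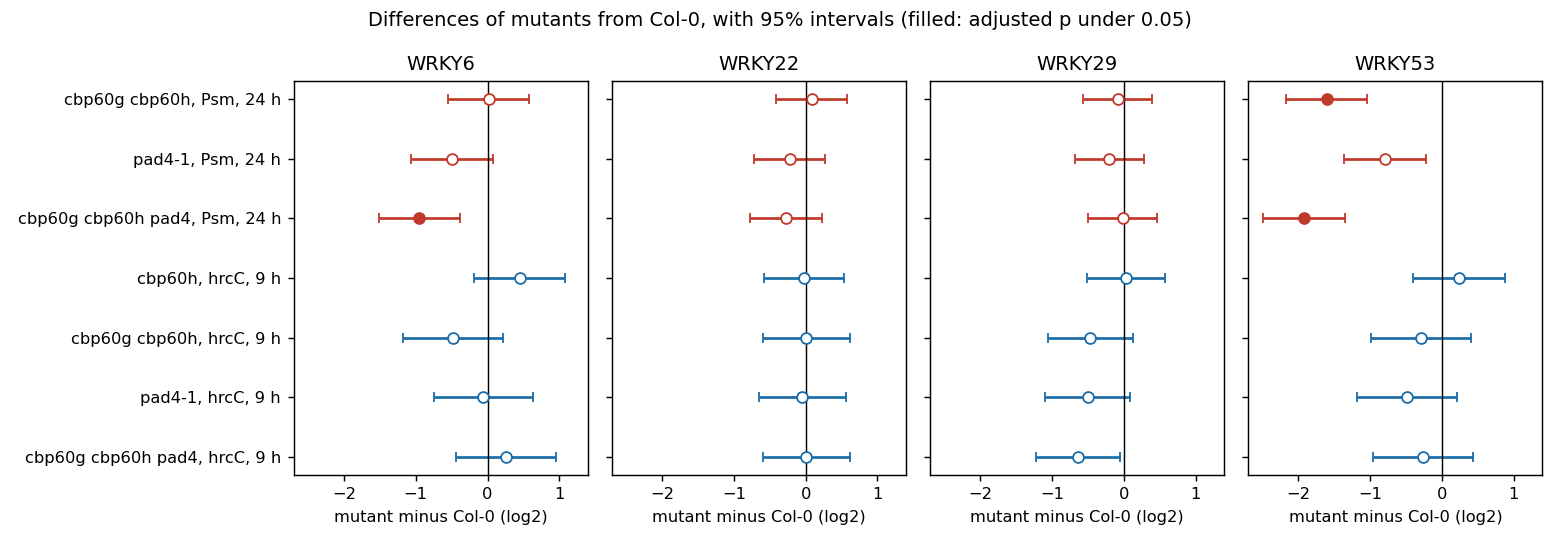
Difference of each mutant from Col-0 (x axis, log2) for each WRKY gene, with 95% intervals from limma; rows are mutant and treatment, red for Psm 24 h and blue for hrcC 9 h, and filled points have an adjusted p under 0.05. The 3 filled points are WRKY53 in the double and triple mutants (-1.61 and -1.92) and WRKY6 in the triple mutant (-0.95), all under Psm.

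WRKY6 was lower in the triple mutant than in Col-0 and the double mutant under Psm, mainly through the arrays of sets 1 and 3. Under Psm it read 4.53, 4.51 and 4.12 in Col-0 and 4.18, 4.49 and 4.52 in the double mutant. The triple mutant read 3.08, 4.26 and 2.96 in sets 1, 2 and 3, and pad4-1 read 3.55, 4.04 and 4.07. The Col-0 and double mutant arrays overlapped, all 3 pad4-1 arrays lay below Col-0, and the triple mutant array of set 2 lay more than 1 log2 unit above the other two, within the range of the double mutant and Col-0. The triple mutant differed by -0.95 (SE 0.27) from Col-0 (limma, adjusted p = 0.01) and by -0.96 (SE 0.27) from the double mutant (limma, adjusted p = 0.00861). With WRKY53, 2 of 4 WRKY genes were thus called lower than Col-0, where 34.3% of the named genes were called and 24.3% lower. Against the double mutant WRKY6 was 1 of 4, where 30.9% were called and 23.2% lower. These shares are the background of a genotype in which many genes differ.

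The calls on WRKY6 depended on single arrays of the triple mutant. Without its set 1 array the difference from Col-0 was -0.77 (limma, adjusted p = 0.0633), without set 3 it was -0.71 (limma, adjusted p = 0.0714), and without set 2 it was -1.36 and called. With only the compared groups in the fit, the adjusted p from limma was 0.0845 against Col-0 and 0.101 against the double mutant, and after quantile normalization the latter difference was -0.58 (limma, adjusted p = 0.0535). The difference from pad4-1, -0.45 (SE 0.27) with all arrays, was called without the set 2 array, at -0.86 (limma, adjusted p = 0.00592). It was -0.27 without set 1 and -0.21 without set 3 of the triple mutant, -0.04 after quantile normalization and -0.21 after re-centring on array medians, and was called in none of these 4 cases. In pad4-1 WRKY6 differed from Col-0 by -0.50 (SE 0.27, 95% interval -1.07 to 0.07), and the double mutant differed from Col-0 by less than 1 SE.

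At 9 h after hrcC the order of genotypes for WRKY6 was not that under Psm. Col-0 read 3.91 and 4.28, the double mutant 3.67 and 3.55, pad4-1 4.04 and 4.03 and the triple mutant 4.45 and 4.24 in sets 1 and 2. The cbp60h arrays read 4.39, 4.37 and 4.86 in sets 1, 2 and 3. The double mutant lay below every other array at this time, and the triple mutant, lowest under Psm, overlapped the top of Col-0. The double mutant was lower than cbp60h, with a difference of -0.93 (SE 0.30; limma, adjusted p = 0.0316), 1 of 4 WRKY genes where 24.9% of named genes were called, 16% lower. The call was lost without either double mutant array or the set 3 cbp60h array, with -0.99, -0.87 and -0.77. Against Col-0, where limma called 0% of named genes and 15 of 181 had an unadjusted p under 0.05, the double mutant differed by -0.48 (SE 0.33), and cbp60h differed by 0.45 (SE 0.30), not called, with 0 of 4 WRKY genes against 13.8% of the named genes.

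WRKY6 was higher after Psm than at 9 h after hrcC in the double mutant and lower in the triple mutant. From hrcC at 9 h to Psm at 24 h the difference was 0.79 (SE 0.30; limma, adjusted p = 0.0424) in the double mutant and -0.91 (SE 0.30; limma, adjusted p = 0.0301) in the triple mutant. The arrays of the double mutant did not overlap between treatments; in the triple mutant the set 2 Psm array, at 4.26, fell between its arrays after hrcC. The first call ended after quantile normalization, at 0.27 (limma, adjusted p = 0.405), and after re-centring on array medians, at 0.40 (limma, adjusted p = 0.233). It also ended without any of 4 of the 5 arrays, all but set 1 under Psm, and the second ended without any of 4 of the 5, all but set 2 under Psm, and with only the compared groups in the fit (limma, adjusted p = 0.174). The difference between the lines, tested as an interaction chosen after the values had been seen, was -1.70 (SE 0.43; limma, adjusted p = 0.0569), and 0 of 4 WRKY genes and 0% of named genes were called for it, against 40 of 181 at an unadjusted p under 0.05. With the set as a block it was called (limma, adjusted p = 0.0235), and without the set 2 triple mutant array under Psm it was -2.11 (limma, adjusted p = 0.000448). Against Col-0 the interaction of the triple mutant was -1.20 (SE 0.43; limma, adjusted p = 0.142), and -1.62 (limma, adjusted p = 0.00586) without that array.

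In set 3 at 24 h after hrcC, WRKY6 read 3.52 in Col-0, 3.49 in pad4-1, 4.08 in the double mutant and 3.92 in the triple mutant. Within set 3 the Psm array was higher than this array by 0.60, 0.58 and 0.44 in Col-0, pad4-1 and the double mutant, and lower in the triple mutant, with -0.96. Over the 4 genotypes the difference between strains in set 3 was smaller than 1 SE.

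WRKY29 was lower after Psm than after hrcC in all 4 genotypes in which both were read. After hrcC at 9 h it read 3.82 and 3.03 in Col-0, 3.0 and 2.92 in the double mutant, 2.70 and 3.14 in pad4-1 and 2.78 and 2.79 in the triple mutant. The cbp60h arrays read 3.48, 3.63 and 3.26. Under Psm it read 1.91, 2.05 and 1.98 in Col-0, 1.85, 2.02 and 1.82 in the double mutant, 1.83, 1.78 and 1.72 in pad4-1 and 2.21, 1.37 and 2.31 in the triple mutant. The highest of the 12 Psm arrays, 2.31, lay below the lowest of the 15 hrcC arrays, 2.70. Of all named genes, 3.87% had every Psm array below every hrcC array, and 3.31% had every Psm array above.

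The differences from hrcC at 9 h to Psm at 24 h were -1.44 (SE 0.26), or 2.72-fold, in Col-0 (limma, adjusted p = 0.00033) and -1.06 (SE 0.26) in the double mutant (limma, adjusted p = 0.00291). In pad4-1 the difference was -1.14 (SE 0.26; limma, adjusted p = 0.0023) and in the triple mutant -0.82 (SE 0.26; limma, adjusted p = 0.0216). WRKY29 was 1 of 4 WRKY genes called in Col-0, where 33.1% of named genes were called and 10.5% were lower, and 1 of 4 in pad4-1, with 32.6% called and 11.6% lower. In the double and the triple mutant 3 of 4 WRKY genes were called, WRKY6, WRKY29 and WRKY53, with 42% and 26.5% of named genes called. In the double mutant 32% were higher, as WRKY6 was, and 9.94% lower; in the triple mutant, where all 3 were lower, 9.94% were. Without the set 2 hrcC array of pad4-1 its difference was -0.92 (limma, adjusted p = 0.0567). In the triple mutant the call was lost without the set 2 Psm array, at -0.53 (limma, adjusted p = 0.101), without either hrcC array, at -0.83 and -0.82, and with only the compared groups in the fit (limma, adjusted p = 0.133). The fall was not shown to differ between genotypes: the interactions with each mutant were not called, the farthest from 0 being 0.62 (SE 0.36; limma, adjusted p = 0.529) in the triple mutant. For pad4-1, 0 of 4 WRKY genes had a called interaction, against 0.552% of named genes.

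The set 3 arrays compare the strains at the same time. Psm minus hrcC at 24 h was -0.75 in Col-0, -1.60 in pad4-1, -1.61 in the double mutant and -1.58 in the triple mutant, from hrcC levels of 2.73, 3.33, 3.43 and 3.89. All 4 pairs fell, the Col-0 pair by the least. With genotype as a term, the difference was -1.39 (SE 0.27), or 2.61-fold (limma, adjusted p = 0.00399). Leaving out either array of a genotype takes its whole pair out of this estimate. The 8 left-out arrays thus give only 4 distinct fits, and the difference was called in each, at -1.60 to -1.31. WRKY29 was 1 of 4 WRKY genes called here, where 30.4% of named genes were called and 8.84% were lower. Between the times after hrcC, the 24 h arrays differed from the 9 h arrays by 0.32 (SE 0.25; limma, adjusted p = 0.451), with 0 of 4 WRKY genes called against 2.21% of named genes. The 24 h arrays are all of set 3 and the 9 h arrays of sets 1 and 2, so time and set cannot be told apart in that last comparison.

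WRKY29 stood near the low end of the array under Psm. There, between 0.348% and 11% of an array's other probes lay below it (median 1.74%), against 17.4% to 48.8% after hrcC (median 24.8%). The table gives no signal over background, so whether the probe was above background under Psm is not known from it, and the folds compare brightness as measured.

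**Figure D3:**
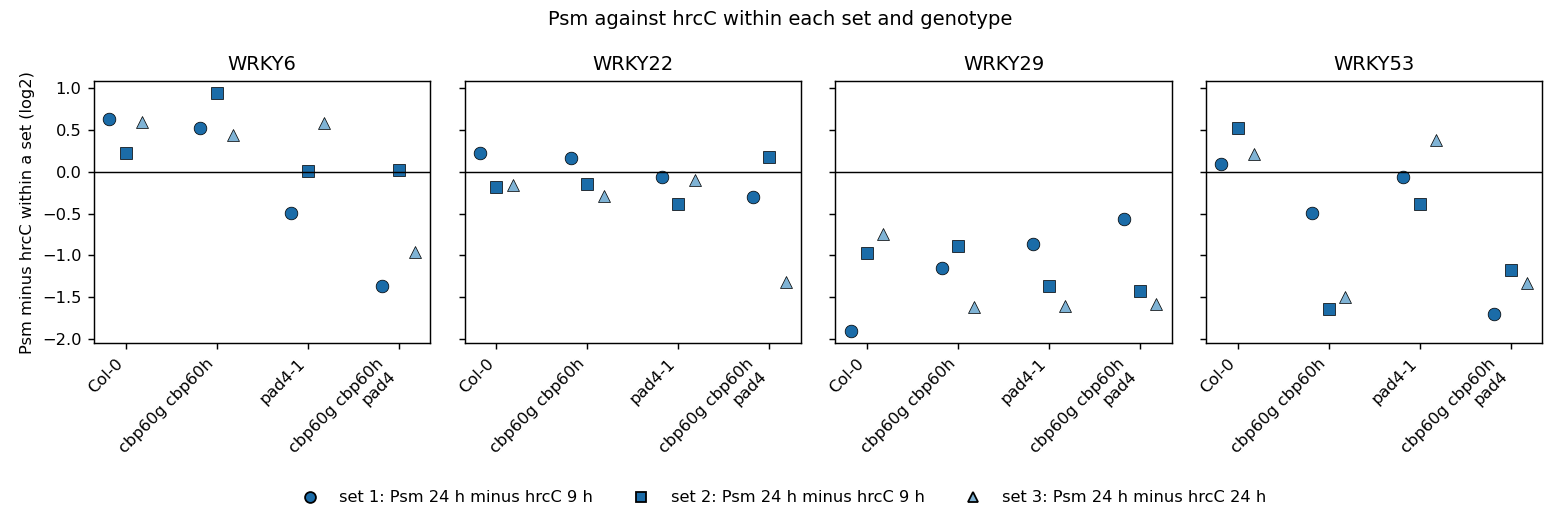
Psm minus hrcC within 1 set and genotype (y axis, log2) for each WRKY gene; circles and squares are sets 1 and 2 (Psm 24 h minus hrcC 9 h) and triangles set 3 (both at 24 h). All 12 WRKY29 differences are below 0, from -1.91 to -0.57, while WRKY53 is below 0 in all sets only in the double and triple mutants.

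Between genotypes WRKY29 gave no called difference, and under Psm its levels lay near the low end of the array. Whether an unknown background narrowed differences and SDs there was not tested. Under Psm the Col-0 mean was 1.98 ± 0.07 (SD, n = 3), pad4-1 1.78 ± 0.05, the double mutant 1.90 ± 0.11 and the triple mutant 1.96 ± 0.52 (SD, n = 3 each). The 3 pad4-1 arrays were below the Col-0 arrays, while the triple mutant held both the lowest and the highest values, the set 2 array at 1.37 and the set 3 array at 2.31. After hrcC at 9 h the triple mutant differed from Col-0 by -0.64 (SE 0.28; limma, adjusted p = 0.244), with 0 of 4 WRKY genes called against 6.63% of named genes. This difference of WRKY29 rested on which Col-0 array was used: it was -1.04 and called without set 2 (limma, adjusted p = 0.0388) and -0.24 without set 1 (limma, adjusted p = 0.966). It was -0.42 after quantile normalization and -0.36 after re-centring on array medians. The double mutant and pad4-1 differed from Col-0 by -0.47 (SE 0.28) and -0.50 (SE 0.28), by -0.07 and -0.11 without the set 1 Col-0 array, and by -0.86 and -0.90 without the set 2 array. Without the set 1 array of pad4-1 its difference was -0.28. In set 3, 24 h after hrcC, the signs were the other way, with the single arrays of pad4-1, the double mutant and the triple mutant above Col-0 by 0.60, 0.71 and 1.16.

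WRKY22 was called by limma in 0 of the 21 comparisons, and its unadjusted p was under 0.05 in 0 of them. Over all 27 arrays it ran from 2.28 to 3.60, with a median of 3.17. Under Psm it read 3.55, 2.97 and 2.96 in Col-0, 3.39, 3.12 and 3.22 in the double mutant, 2.92, 3.02 and 2.87 in pad4-1 and 2.87, 3.51 and 2.28 in the triple mutant. The triple mutant again held both the lowest and a high array, with the high one from set 2. Its difference from Col-0 was -0.28 (SE 0.24, 95% interval -0.77 to 0.22) and that from the double mutant -0.36 (SE 0.24).

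Without the set 2 triple mutant array under Psm, WRKY22 was called lower in the triple mutant than in Col-0, at -0.59 (limma, adjusted p = 0.0402), than in the double mutant, at -0.67 (limma, adjusted p = 0.0227), and than after hrcC at 9 h, at -0.68 (limma, adjusted p = 0.0406). Without the set 3 triple mutant array under Psm these differences were, in the same order, 0.02, -0.06 and -0.07, and were not called. After hrcC at 9 h the 11 arrays spanned 2.99 to 3.40, and all 4 mutants differed from Col-0 by less than 1 SE. The 24 h hrcC arrays read 3.12 in Col-0, 2.97 in pad4-1, 3.52 in the double mutant and 3.60 in the triple mutant. Over the 4 genotypes, Psm minus hrcC in set 3 was -0.47 (SE 0.29) and was not called. After quantile normalization it was -0.90 and called (limma, adjusted p = 0.0266), and so was the difference from hrcC at 9 h to Psm in pad4-1, at -0.65 (limma, adjusted p = 0.041).

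The order of group means differed among the genes. For WRKY53 cbp60h after hrcC at 9 h (4.76 ± 0.11, SD, n = 3) and Col-0 after Psm (4.74 ± 0.16, SD, n = 3) were highest and overlapped. The double and triple mutants under Psm were the lowest 2 of 13 groups by their means and overlapped each other. The next mean up, the single pad4-1 array at 24 h after hrcC, was 0.71 higher, but the set 2 pad4-1 array under Psm, at 3.24, lay within the range of the double mutant. For WRKY29 the 4 Psm groups were the lowest 4, and each overlapped the next in the order. The pad4-1 arrays under Psm all lay below those of Col-0 under Psm. Between the means of Col-0 under Psm and of the next group up lay 0.75. For WRKY6 and WRKY22 most neighbours in the order overlapped, with the triple mutant under Psm lowest in both, at 3.44 ± 0.72 and 2.89 ± 0.61 (SD, n = 3 each). In that group the SD of WRKY6, WRKY22 and WRKY29 was 0.52 to 0.72 against a median of 0.29 over the named genes, while that of WRKY53 was 0.18.

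Across the 12 Psm arrays, WRKY6 and WRKY22 varied together, with a Pearson r of 0.74 and a Spearman rho of 0.81, and r was 0.72 after removal of group means. Without the 2 arrays farthest from the median of WRKY6, which are triple mutant arrays of sets 1 and 3, r was 0.48. WRKY29 ran against WRKY22, with r = -0.66, rho = -0.44 and r = -0.83 after removal of group means. Over the 11 arrays at 9 h after hrcC the same pairs gave r of -0.17 and 0.38. WRKY6 and WRKY53, with r = 0.39 under Psm, gave 0.02 after removal of group means. These values describe arrays that share sets, genotypes and array-wide brightness, and the set 2 array of the triple mutant weighs on each pair with WRKY29.

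**Figure D4:**
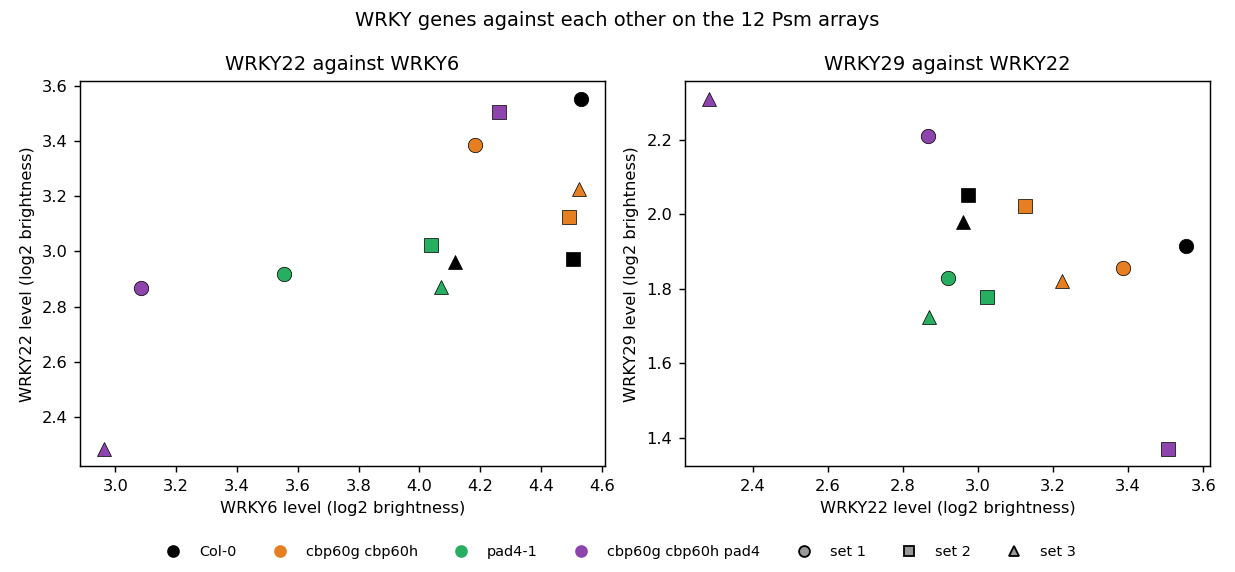
Levels (log2 brightness on both axes) of WRKY22 against WRKY6 and of WRKY29 against WRKY22 on the 12 Psm arrays, coloured by genotype, with marker shapes for sets 1 to 3. The triple mutant arrays lie at both ends: WRKY22 is at 2.28 in set 3 and 3.51 in set 2, where WRKY29 is at 2.31 and 1.37.

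The named genes most like WRKY53 over the 12 Psm arrays were CCL (r = 0.88), AT4G00700 (r = 0.86) and AT1G09500 (r = 0.84), which correlated with it at 0.25, 0.05 and 0.51 over the 11 arrays at 9 h after hrcC. Within the Psm groups these values were 0.08, 0.24 and 0.40, so the likeness lay mostly between genotypes. For WRKY6 the 3 genes were AT1G27100 (0.93), AT3G54150 (0.92) and AT2G18690 (0.87), with 0.59, 0.59 and -0.08 after hrcC. For WRKY22 they were AT4G27280 (0.80), AT4G39670 (0.79) and AT2G39110 (0.79), with 0.29, 0.22 and -0.43 after hrcC. For WRKY29 the highest values were lower, 0.65 for AT5G20030, 0.59 for AT4G32530 and 0.58 for SCL21, with -0.63, 0.16 and 0.35 after hrcC. Within the Psm groups the values were 0.96, 0.84 and 0.66 for the WRKY6 genes and 0.84, 0.82 and 0.77 for those of WRKY22. For those of WRKY29 they were 0.65, 0.59 and 0.57. The genes were picked as the highest of 180, and the arrays share sets and genotypes.

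Few of the listed genes that surround these factors were among the named probes, and probes without a gene name were not searched. Found were 0 of 14 in pattern-triggered signalling and 0 of 11 in senescence and known targets of WRKY6 and WRKY53. In the salicylic acid pathway 2 of 18 were found, in camalexin and ethylene-jasmonate defence 1 of 6, and of the steady genes 1 of 4. GRX480, which encodes a glutaredoxin that salicylic acid induces, differed from Col-0 by 0.15 (SE 0.28) in the double mutant under Psm, in which WRKY53 fell. UGT76B1, a salicylic acid glucosyltransferase gene, differed there by -0.57 (SE 0.44), and PDF1.2, a defensin gene of the ethylene-jasmonate branch, by 1.61 (SE 0.68; limma, adjusted p = 0.208). None of the 3 was called in the double mutant, where 6.63% of named genes were. In the triple mutant under Psm GRX480 and UGT76B1 were both called lower, where 24.3% of all named genes were. Their differences were -1.32 (SE 0.28, limma, adjusted p = 0.00099) and -2.36 (SE 0.44, limma, adjusted p = 0.000295). PDF1.2 was higher there by 2.36 (SE 0.68, limma, adjusted p = 0.0101), where 18 of 181 named genes were called higher. Unlike WRKY53, GRX480 was also called lower in the triple mutant at 9 h after hrcC, at -2.27 (SE 0.35, limma, adjusted p = 0.000598). In that comparison 6.63% of named genes were called. UGT76B1 differed by -1.81 (SE 0.54, limma, adjusted p = 0.0509) and PDF1.2 by less than 1 SE. From hrcC at 9 h to Psm at 24 h in Col-0, the treatment contrast in which WRKY29 fell, GRX480 rose by 1.16 (SE 0.32; limma, adjusted p = 0.00834) and PDF1.2 differed by -2.98 (SE 0.76; limma, adjusted p = 0.00495). The elongation factor gene AT5G60390, listed as steady, also differed there, by -1.49 (SE 0.47, limma, adjusted p = 0.0206). It was called lower in the triple mutant too, at -1.51 (SE 0.47, limma, adjusted p = 0.0216), but not in the double mutant (-0.54) or pad4-1 (-0.82). Between the strains at 24 h in set 3 it differed by -1.16 (SE 0.29, limma, adjusted p = 0.0142). Its part in the WRKY29 differences was not tested.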

How the data were processed

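Analysis began from the log2 values that the authors deposited in the value table of the series. How the arrays were scanned, background-corrected and normalized is not stated in the labels or files. The table holds no signal over background, and precision is limited by how many arrays each group has. Per the labels, amplified RNA carried 1 dye per array. Gene names are those of the platform annotation and can be out of date. The reference gene table (assembly TAIR10.1) served for names only.

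Samples were grouped by the labels. One model of group means was fitted to the 23 arrays whose group has 2 or 3 members, using lmFit and eBayes of limma 3.58.1 under R 4.3.3. Set 3 strains were compared on 8 arrays with genotype as a term, and the hrcC times on 12 arrays likewise. Each two-sided p was adjusted by the Benjamini-Hochberg method across all 181 named genes, and a gene with an adjusted p below 0.05 counts as called. The design had 21 comparisons, and 1 interaction was added after the values had been seen. The scripts' test was checked on simulated data. The members and lists were chosen with earlier results of these data known. The text names the 4 WRKY genes, the 3 named genes with the highest r to each over the Psm arrays, and called members of the lists.

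The labels call each set 1 experiment, so the set numbers pair arrays. Deviations from group means of same-set arrays correlated at 0.14 to 0.62 under Psm (18 pairs) and at -0.12 to 0.44 after hrcC (20 pairs). Between groups of 2 arrays, sets 1 and 2 must give the same value, so the 20 are not all separate. Alternatives were quantile normalization, re-centring on array medians or on 100 steady probes, all 576 probes, trend and robust eBayes, a filter on the dimmest 25% of named genes, only the compared groups, the set as a block, and each array left out. Where the samples are not separate cultures of plants, p-values measure only the spread between these samples.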

Additional observations from a re-analysis of the deposited data

Results flagged for a closer look

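WRKY53 in the triple mutant differed between the treatments by a test of the difference itself with all arrays in the fit. This call was not stable, being kept in only 2 of 10 cases with 1 array left out. The same interaction for the double mutant, -1.31 (SE 0.43), was not called. In the triple mutant the effect against Col-0 was -1.92 (SE 0.27) at 24 h after Psm and smaller than 1 SE at 9 h after hrcC. The interaction was -1.66 (SE 0.43, limma, adjusted p = 0.0369). Strain and time differ together between these treatments and cannot be told apart. No group of 4 to 10 arrays exists within a genotype and treatment, so no array was tested as an outlier of its group.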

How the results depend on the processing

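Of the differences of WRKY genes that were called or exceeded 1 SE, 337 of 351 recomputed under other settings kept their direction and side of the threshold, and 283 of 321 did so with 1 array left out. Of these, 223 and 218 belonged to differences that were not called to begin with and stayed so. For called differences, 114 kept the call under other settings and 7 lost it. With 1 array left out, 65 kept the call and 28 lost it. Both arrays of a set 3 pair give the same left-out fit and are each counted. WRKY53 kept all 6 of its calls under every scaling, probe set, eBayes setting, block and choice of groups run, and lost calls only with an array left out. Quantile normalization and re-centring moved the median of all named genes by up to 0.387 and 0.39 (Psm against hrcC in the double mutant). Quantile normalization took the count of called WRKY genes from 1 to 0 (named genes from 56 to 66 of 181) for the triple against the double mutant. It took this count from 1 to 2 for Psm against hrcC 9 h in pad4-1 (named genes 59 to 65) and for the strains in set 3 (55 to 53). It also turned the sign of 4 uncalled differences, to 0.0856 and 0.0503 for WRKY22 in the triple mutant against Col-0 and the double mutant under Psm, to 0.013 for WRKY53 in the triple against the double mutant, and to 0.0161 for the departure of WRKY6 from additive effects. With only the compared groups, counts fell from 2 to 1 (named genes 62 to 54) for the triple mutant against Col-0 under Psm. They fell from 1 to 0 (56 to 39) for the triple against the double mutant, and from 3 to 1 (48 to 44) for Psm against hrcC in the triple mutant. The filter on dim genes removed WRKY22 and WRKY29, so the count was 0 for Psm against hrcC in Col-0, in pad4-1 and in set 3. Of the 136 named genes left, 49, 51 and 50 were called there. With the set as a replicate block, 1 WRKY gene in place of 0 was called for the added interaction between the triple and double mutants (named genes 10 of 181). With all probes tested it was also 1 (52 of 576 probes). The pairing changed no other count of WRKY genes.

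With 1 array left out, the number of called WRKY genes ran from 1 to 3 (named genes 47 to 62 of 181) for the triple mutant against Col-0 under Psm. It ran from 0 to 2 (named genes 49 to 60) against the double mutant and from 1 to 2 (29 to 47) against pad4-1. It ran from 0 to 1 for the double mutant against pad4-1 under Psm, for the triple mutant against Col-0 and the double mutant against cbp60h after hrcC, and for the added interaction. Between treatments it ran from 1 to 3 in the double and the triple mutant, 0 to 1 in pad4-1, and 0 to 2 for the interaction of the triple mutant. Left-out arrays moved WRKY22 in the triple mutant against Col-0 under Psm from -0.59 to 0.0242, and the interaction of WRKY29 in the double mutant from -0.0129 to 0.78, neither called with all arrays. In the other comparisons whose count of WRKY genes moved, the number of called named genes moved as well. The causes were not tested. No signal over background was given, so dim levels such as WRKY29 under Psm carry an unknown floor.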
